A study of Bos taurus with 5 samples.

Results

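The genes described are 47 genes of mitosis, the kinetochore and the centromere, matched by gene name in a table of 27607 gene entries. All 47 names were found, each as 1 entry. Their levels come from RNA sequencing of cattle (Bos taurus), in 5 libraries, 1 each with the tissue labels limb, heart, lung, skin and brain. No treatment, genotype, age or cell number is given in the sources used here, and the labels' protocols describe lysed cells whose RNA was pre-amplified and turned into libraries by Fluidigm's C1-HT IFC procedure. With no replicates, each value describes 1 library and carries no error, and no difference could be tested.

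Mitosis is driven by cyclin-dependent kinase 1 bound to cyclin A or B. Chromosomes attach to spindle microtubules through kinetochores, which are built on centromeres marked by a special histone, and the spindle checkpoint holds back the anaphase-promoting complex (APC/C) until all of them are attached. Many of these genes are transcribed mainly in late S, G2 and M phase, so their RNA is widely used as a mark of dividing cells. Where a library holds many cells, a higher share of dividing cells and more RNA per cell cannot be told apart.

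Values are FPKM, fragments per kilobase of transcript corrected for sequencing depth, so levels are per length. The libraries were not alike in how much they showed: between 5109 entries (skin label) and 6634 (heart label) were above 0. Low values also rest on few reads. By number of genes, the spacing of low values between libraries was clearest for the brain and heart labels. There 56 genes lay on 1 common ratio, with a median of 11.9 FPKM under the brain label. The next ratio held 37 genes, and the median over all ratios tried was 5. The spacing was less clear elsewhere. For the skin and limb labels the best ratio held 13 genes and the next 12, against a median over ratios of 3. Genes on that best ratio had a median of 60.4 FPKM under the skin label. For the brain and limb labels 2 ratios held 18 genes each, against a median over ratios of 4. The level that 1 or a few reads give was therefore not settled for each library, and a gene listed at 0 may be expressed below what a library could show. Markers of the labelled tissues were mostly at 0. All 7 neuronal genes were at 0 under the brain label, as were 6 of 7 keratinocyte genes under the skin label, 6 of 6 alveolar genes under the lung label, 5 of 6 cardiomyocyte genes under the heart label and 4 of 6 skeletal muscle genes under the limb label. The limb-labelled library did list the skeletal muscle gene ACTA1, at 37.6 FPKM against 0 to 1.57 FPKM elsewhere. It also listed the skeletal muscle gene TNNT1, at 18.1 FPKM against 0 elsewhere. The striated muscle actin ACTC1 was at 231 FPKM there, 57.7 FPKM under the brain label, 5.21 FPKM under the heart label and 0 in the others. Markers also appeared away from their label. Among them, the alveolar gene SFTPC was at 34.2 FPKM only under the limb label. The keratinocyte gene KRT5 was at 51 FPKM only under the lung label. Leukocyte (6) and endothelial (5) genes were at 0 in all 5 libraries, of 4 erythroid genes only the globin HBA was above 0, at 59.5 FPKM under the lung label, and of 4 germ cell genes only SYCP3, at 3.18 FPKM under the brain label. Libraries are therefore named by their labels alone.

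The members were concentrated under the skin and lung labels. Above 0 were 32 of 47 under the skin label and 40 under the lung label, against 11 (brain), 9 (heart) and 5 (limb). Over all entries of the table the order was different: 18.5% were above 0 under the skin label and 21.7% under the lung label, against 23.9% (brain), 24% (heart) and 19.3% (limb). Over the 8694 entries with a mean of at least 1 FPKM, 56.4% (skin) and 65.8% (lung) were above 0, against 71.7% (brain), 71.4% (heart) and 58.7% (limb). The members' own shares were 68.1% (skin), 85.1% (lung), 23.4% (brain), 19.1% (heart) and 10.6% (limb). The libraries with the most entries above 0 were not those with the most members above 0. The members were chosen with earlier results of these libraries known, so these shares are a description. How detection bears on the members' counts was not tested.

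**Figure D1:**
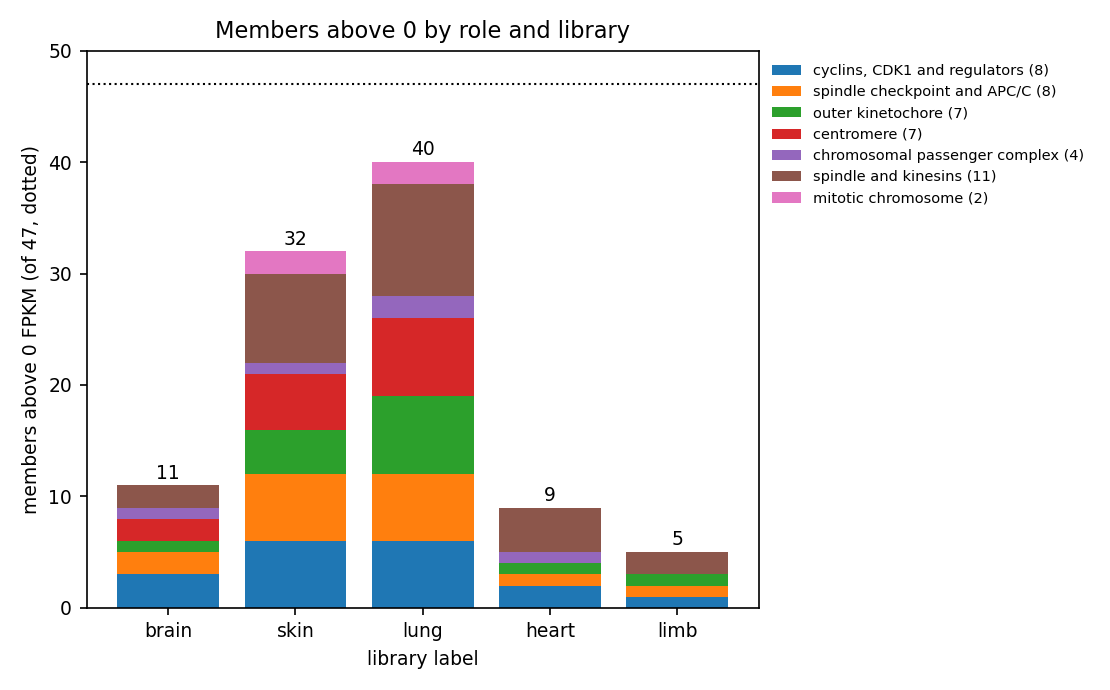
Number of members above 0 FPKM (vertical axis) in each of the 5 libraries, stacked by role, with the number of members of each role in brackets and a dotted line at 47. The skin- and lung-labelled bars reach 32 and 40, and the other bars reach 11, 9 and 5.

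The summed level was also highest in these libraries. The members added up to 4105 FPKM under the skin label and 5964 FPKM under the lung label, against 328 FPKM (brain), 556 FPKM (heart) and 473 FPKM (limb). These sums were 0.352% and 0.509% of all FPKM under the skin and lung labels and 0.0306% to 0.0504% in the other 3. The median of log2(FPKM + 1) over the 47 members was 4.70 (skin label) and 5.90 (lung label) and 0 in the other 3 libraries, while over all entries it was 0 in each library. Over those 8694 entries it was 2.34 and 3.45 under the skin and lung labels and 2.80 to 3.70 in the others. Of the members, 40 reached that mean.

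Each member was then asked whether both the skin- and the lung-labelled value stood clear of the other 3. A member was called higher when the lower of both values was at least 10 FPKM and, after adding 1, at least 4 times the highest value of the brain-, heart- and limb-labelled libraries. By this rule 21 of 47 members were called higher, against 0.427% of all entries and 1.36% of the entries with a mean of at least 1 FPKM. The 21 made up 17.8% of the 118 entries called. In the opposite direction 0 members were called lower, against 0.58% of all entries and 1.84% of those with that mean. This comparison was chosen with earlier results of these libraries known, so the counts are a description.

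In a fibroblast and matrix list, only the type I collagen genes moved in the opposite direction. Of its 7 genes, 5 were above 0 under the skin and lung labels and 4 in each of the other 3, DCN and LUM were at 0 in all 5, and the list summed to 2355 FPKM (skin), 1089 FPKM (lung), 2186 FPKM (brain), 3016 FPKM (heart) and 1720 FPKM (limb), most of it the filament protein VIM. COL1A2, a chain of type I collagen, was at 19.7 FPKM (skin) and 6.0 FPKM (lung), against 311 FPKM (brain), 523 FPKM (heart) and 174 FPKM (limb). COL1A1, its partner chain, was at 11.4 FPKM (skin) and 37.2 FPKM (lung), against 131 FPKM (brain), 191 FPKM (heart) and 74.4 FPKM (limb). The type I collagen genes were thus lower in the libraries with more mitotic genes, whereas COL3A1, of type III collagen, was at 33.5 to 72.6 FPKM with overlapping values. VIM overlapped too, at 2251 FPKM (skin) and 1011 FPKM (lung) against 1399 to 2230 FPKM in the others. PDGFRA went the other way, at 0.57 FPKM (skin), 1.57 FPKM (lung) and 0 elsewhere. The part of the genes of this list in the result was not tested.

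Of the 21, 15 were listed at 0 in all of the brain-, heart- and limb-labelled libraries and 6 were above 0 in at least 1 of them. Without any minimum or ratio, both values lay above the other 3 for 26 members, against 3.3% of all entries and 10.2% of those with a mean of at least 1 FPKM. Both lay below for 0, against 2.92% and 9.19%. The 5 members that were clear of the rest but not called were BUB1, NUSAP1 and MKI67, whose lower value was under 10 FPKM, and TPX2 and KIF11, whose ratio was under 4. Nearest to the ratio, CCNB2 lay just inside at 4.09 and TPX2 just outside at 3.84. Among members past the ratio, CENPF lay just inside the minimum with a lower value of 10.01 FPKM and NUSAP1 outside with 6.27 FPKM.

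**Figure D2:**
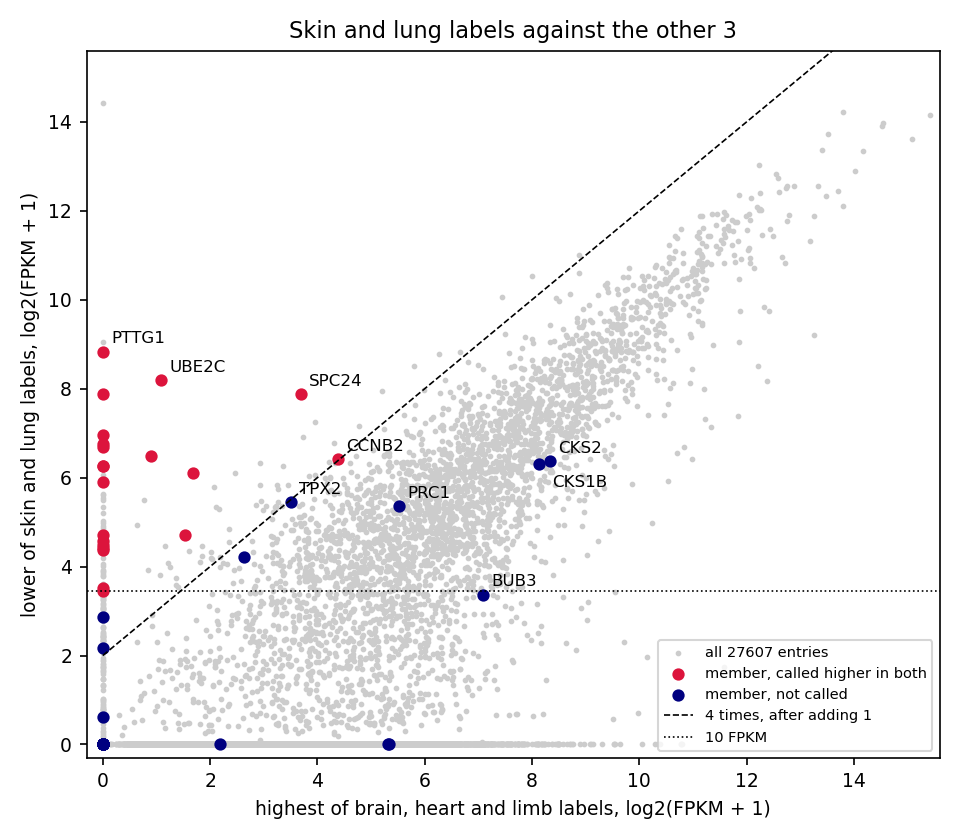
Lower value of the skin and lung labels (vertical) against the highest value of the brain, heart and limb labels (horizontal), both as log2(FPKM + 1), for all 27607 entries in grey and the members in colour. The 21 members called higher in both (red) lie above the dashed line of 4 times and the dotted line of 10 FPKM, 15 of them at 0 on the horizontal axis, while CKS1B, CKS2, PRC1 and BUB3 lie among or below the bulk of the entries.

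Cyclins and the proteins around cyclin-dependent kinase 1 had the largest sums of any role under the skin and lung labels. They summed to 1132 FPKM under the skin label, 2097 FPKM under the lung label and 101 to 404 FPKM in the others. Of the lung-labelled sum, 1318 FPKM was CKS2 alone, and the spindle checkpoint and APC/C genes came close at 2065 FPKM. Of the 8 members, 3 were called higher in both. CCNB1 (cyclin B1), the cyclin of mitotic entry, was at 123 FPKM under the skin label and 284 FPKM under the lung label and listed at 0 under the brain, heart and limb labels. CDCA3, an adaptor for destruction of the mitotic inhibitor WEE1, was at 377 FPKM (skin label) and 236 FPKM (lung label) and also at 0 in the other 3. Both genes thus separated the libraries completely. CCNB2 (cyclin B2) was at 227 FPKM (skin label), 84.3 FPKM (lung label) and 19.9 FPKM (brain label), and at 0 under the heart and limb labels. CCNA2 (cyclin A2), which acts from S phase on, was listed only under the skin label, at 70.7 FPKM, and CDKN3, a phosphatase of cyclin-dependent kinases, only under the lung label, at 95.6 FPKM. CDK1, the kinase itself, was listed at 0 in all 5 libraries, although cyclins that bind it were present.

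The small kinase-binding subunits CKS1B and CKS2 did not follow the cyclins. CKS1B, which also helps to target the inhibitor p27 for destruction, was at 280.5 FPKM under the limb label, 251 FPKM under the skin label, 82.9 FPKM under the heart label, 78.0 FPKM under the lung label and 41.9 FPKM under the brain label. CKS2, its paralog, was at 1318 FPKM under the lung label, 321 FPKM under the heart label, 82.0 FPKM under the skin label and 39.2 FPKM under the brain label and at 0 under the limb label. The highest CKS1B value thus fell in the library without CKS2, and the skin- and lung-labelled values overlapped with the rest for both genes. CKS2 was the highest member value of all, rank 193 among the 5991 entries above 0 under the lung label. The paralogs are similar in sequence. RSEM is named among the tools used, but its settings for reads shared between genes were not given in the sources used here.

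Among the 8 genes of the spindle checkpoint and the APC/C, 3 were called higher in both, and all act at the APC/C step. PTTG1 (securin), which holds separase inactive until anaphase, was at 455 FPKM under the skin label and 1089 FPKM under the lung label and at 0 in the other 3. UBE2C, the ubiquitin-conjugating enzyme of the APC/C, was at 372 FPKM (skin label) and 290.2 FPKM (lung label), with 1.13 FPKM under the brain label and 0 under the heart and limb labels. CDC20, the APC/C activator, was at 183 FPKM (skin label) and 75.8 FPKM (lung label) and at 0 elsewhere.

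None of the 5 checkpoint proteins proper was called in both, which is near the background of 0.427% of all entries. With each label set alone against brain, heart and limb, BUB1 and MAD2L1 were called higher under the lung label. BUB1B was called higher under the skin label. Of all entries 2.2% (lung label) and 1.87% (skin label) were called in this way. BUB1, a checkpoint kinase, was at 3.47 FPKM under the skin label and 26.0 FPKM under the lung label and at 0 elsewhere. BUB1B (BUBR1), an APC/C inhibitor, was listed only under the skin label, at 26.1 FPKM. MAD2L1 (MAD2), which binds CDC20, was listed only under the lung label, at 81.1 FPKM. The kinase TTK was at 0 in all 5, so no library listed the full set. BUB3 stood apart from the rest of the list: it was at 503 FPKM under the lung label, 134 FPKM under both the brain and limb labels, 99.7 FPKM under the heart label and 9.34 FPKM under the skin label. It was thus highest under the lung label and lowest under the skin label.

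**Figure D3:**
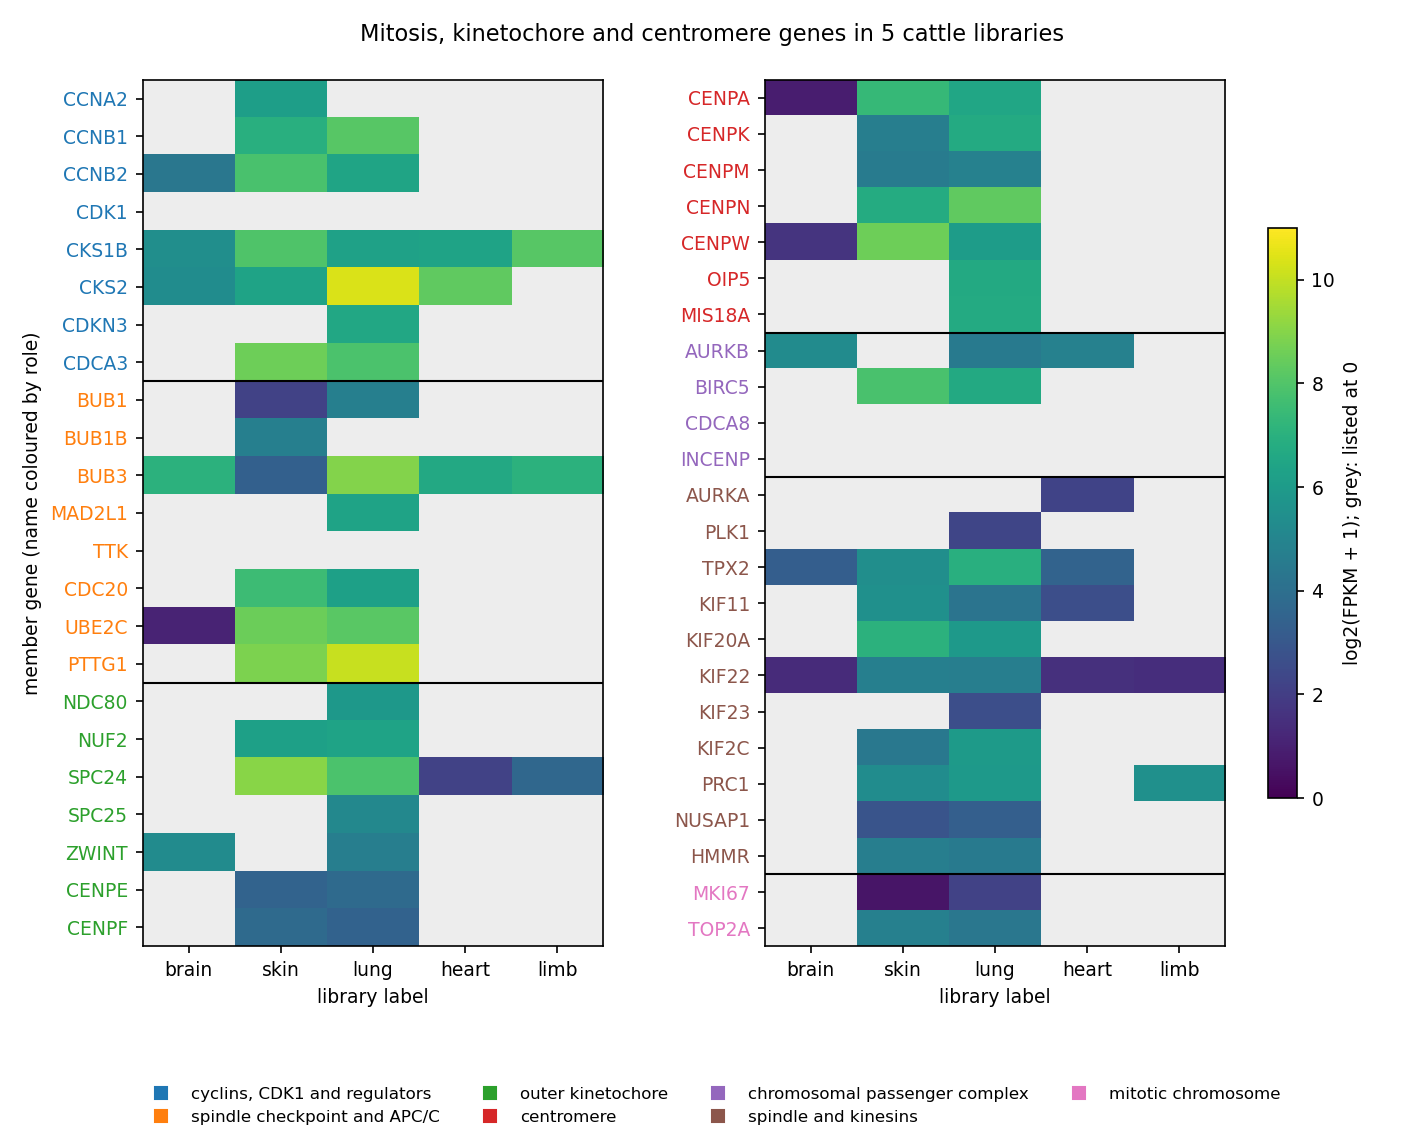
Level of each of the 47 members as log2(FPKM + 1) (colour) in the 5 libraries (columns), with genes grouped and coloured by role and grey cells for genes listed at 0. Colour fills the skin and lung columns for most genes, while BUB3, CKS1B and KIF22 are above 0 in all 5 libraries and CDK1, TTK, CDCA8 and INCENP in none.

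The outer kinetochore, which binds microtubules, summed to 627 FPKM under the skin label and 457 FPKM under the lung label, and to 3.54 to 39.1 FPKM in the others. Of its 7 members, 4 were called higher in both. SPC24 was at 528 FPKM under the skin label and 234 FPKM under the lung label, with 11.9 FPKM under the limb label, 3.54 FPKM under the heart label and 0 under the brain label. NUF2 was at 75.3 FPKM (skin label) and 83.5 FPKM (lung label) and at 0 in the rest. SPC24 and NUF2 are subunits of the NDC80 complex, the main coupler to microtubules, whose other subunits NDC80 (57.2 FPKM) and SPC25 (34.4 FPKM) were listed only under the lung label. All 4 subunits were therefore above 0 under the lung label and only SPC24 and NUF2 under the skin label.

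CENPE, a kinesin motor of the kinetochore, was at 10.4 FPKM (skin label) and 13.1 FPKM (lung label), and the coiled-coil protein CENPF at 13.0 FPKM and 10.01 FPKM, with 0 in the other 3 libraries. Both passed the minimum only narrowly. Few reads may stand behind such values, though their number also depends on transcript length, which was not used here. ZWINT, a scaffold for checkpoint recruitment, ran against the rest of the group. It was at 39.1 FPKM under the brain label and 25.0 FPKM under the lung label and at 0 under the skin, heart and limb labels.

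The centromere genes had the highest share of members called in both, 5 of 7. All 7 were above 0 under the lung label and 5 under the skin label, while the heart- and limb-labelled libraries listed 0 of 7 and the brain-labelled library 2, at a sum of 3.05 FPKM. CENPA, the histone H3 variant that marks the centromere, was at 165 FPKM (skin label), 89.4 FPKM (lung label) and 0.86 FPKM (brain label). CENPW, a histone-fold protein of the inner kinetochore, was at 385 FPKM (skin label), 67.7 FPKM (lung label) and 2.19 FPKM (brain label). CENPN, which reads the CENPA nucleosome, was at 107 FPKM (skin label) and 315 FPKM (lung label) and at 0 in the other 3. None of these genes had a value under the brain, heart or limb label near those of the skin and lung labels.

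CENPK, a subunit of the inner kinetochore network, was at 25.0 FPKM under the skin label and 106 FPKM under the lung label, and CENPM, of the same network, at 22.7 FPKM and 27.8 FPKM, with 0 in the other 3. OIP5 (MIS18B) and MIS18A, partners in the complex that licenses the loading of new CENPA, were listed only under the lung label, both at 103 FPKM. OIP5 overlaps NUSAP1 in a RefSeq table of ARS-UCD2.0, and whether reads were assigned by strand was not given in the sources used here. Both genes of this complex were thus at 0 under the skin label, where CENPA itself was higher than under the lung label.

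The chromosomal passenger complex, which corrects faulty attachments and directs cytokinesis, was incomplete in every library. BIRC5 (survivin) was at 227 FPKM under the skin label and 102 FPKM under the lung label and at 0 in the other 3. AURKB, the kinase of the complex, was at 39.1 FPKM under the brain label, 27.4 FPKM under the heart label and 21.4 FPKM under the lung label and at 0 under the skin and limb labels. The scaffold INCENP and CDCA8 (borealin) were at 0 in all 5. Of the 4 members at 0 in all libraries, CDK1, TTK and INCENP each overlap another gene in a RefSeq table of ARS-UCD2.0. So do members called higher in both, among them CCNB2, CDCA3, CENPF and KIF20A. The values come from another build, ARS-UCD1.2, and whether its annotation holds these overlaps was not tested. The settings for reads in overlaps were not given in the sources used here. Only BIRC5 was called higher in both, and AURKB did not separate the libraries.

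Spindle proteins and kinesins were the largest role, with 11 members. They summed to 338 FPKM under the skin label and 386 FPKM under the lung label and to 10.3 to 46.8 FPKM in the others. Called higher in both were 4 of 11. KIF20A (MKLP2), a kinesin of the central spindle, was at 133 FPKM (skin label) and 58.8 FPKM (lung label) and at 0 elsewhere. KIF2C (MCAK), which depolymerises microtubules at centromeres, was at 20.3 FPKM (skin label) and 63.1 FPKM (lung label), and HMMR, a spindle and hyaluronan-binding protein, at 25.1 FPKM and 21.4 FPKM, both at 0 elsewhere. KIF22, a chromosome-arm kinesin, was above 0 in all 5 libraries, at 26.0 FPKM (skin label), 25.1 FPKM (lung label) and 1.53 to 1.89 FPKM in the rest.

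TPX2, an activator of Aurora A and a nucleator of microtubules, was at 123 FPKM under the lung label and 42.5 FPKM under the skin label, against 10.3 FPKM (heart label), 8.79 FPKM (brain label) and 0 (limb label). KIF11 (Eg5), which pushes spindle poles apart, was at 44.4 FPKM (skin label), 17.7 FPKM (lung label) and 5.18 FPKM (heart label). Both genes had their highest values in these libraries but missed the ratio. NUSAP1, which bundles microtubules near chromatin, was at 6.27 FPKM (skin label) and 9.19 FPKM (lung label) only. PRC1, the bundling protein of the central spindle, was at 58.7 FPKM (lung label), 45.0 FPKM (limb label) and 40.1 FPKM (skin label), so its values overlapped. The remaining spindle members each appeared in a single library at a low value. AURKA, a kinase of the spindle poles, was listed only under the heart label, at 3.57 FPKM, the mitotic kinase PLK1 only under the lung label, at 3.98 FPKM, and the kinesin KIF23 only under the lung label, at 5.22 FPKM.

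Of the pair that coats or reshapes mitotic chromosomes, TOP2A (topoisomerase II alpha) was at 26.7 FPKM under the skin label and 19.9 FPKM under the lung label. MKI67, the antigen Ki-67 used to stain dividing cells, was at 0.54 FPKM and 3.44 FPKM there. Both were at 0 in the other 3 libraries. By these values, taken as FPKM and so as levels per length, MKI67 was among the lowest members. Its rank was 5190 of 5991 entries above 0 under the lung label. How transcript length bears on this rank was not tested.

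The members above 0 under the brain, heart or limb label were few, 15 of 47. Of these, 12 were also above 0 in both the skin- and lung-labelled libraries, and the other 3 were ZWINT, AURKB and AURKA. BUB3, CKS1B and CKS2 together made up 65.7% (brain), 90.7% (heart) and 87.6% (limb) of the members' summed level. Under the lung label they made up 31.8% and under the skin label 8.34%. No member was called higher under the brain, heart or limb label than in each of the other 4 by the same minimum and ratio, against 1.24%, 1.33% and 1.14% of all entries.

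The skin- and lung-labelled libraries were then set against each other. Above 0 in both were 30 members, of which 15 were higher under the skin label and 15 under the lung label. For 25 of the 30 neither direction reached 4 times after adding 1. Over all 47 members, 12 were called higher under the lung label, against 6% of all entries and 19% of those with a mean of at least 1 FPKM. Called higher under the skin label were 3, against 4.23% and 13.4%. The members' shares were 25.5% and 6.38% of all 47, and 30% and 7.5% of the 40 members with that mean.

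The 12 higher under the lung label were CKS2, CDKN3, BUB1, BUB3, MAD2L1, NDC80, SPC25, ZWINT, CENPK, OIP5, MIS18A and AURKB, and 8 of these were at 0 under the skin label. Where both libraries had values, BUB3 was 53.8 times, CKS2 16.1 times, BUB1 7.5 times and CENPK 4.23 times as high under the lung label. The 3 higher under the skin label were CCNA2 and BUB1B, listed at 0 under the lung label, and CENPW, 5.69 times as high. The lung-labelled library also listed 8 members that no other library listed, 17.0% of the 47 against 1.83% of all entries and 3.88% of those with a mean of at least 1 FPKM. The skin-labelled library listed 2 such members, 4.26% against 1.25% and 2.47%.

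**Figure D4:**
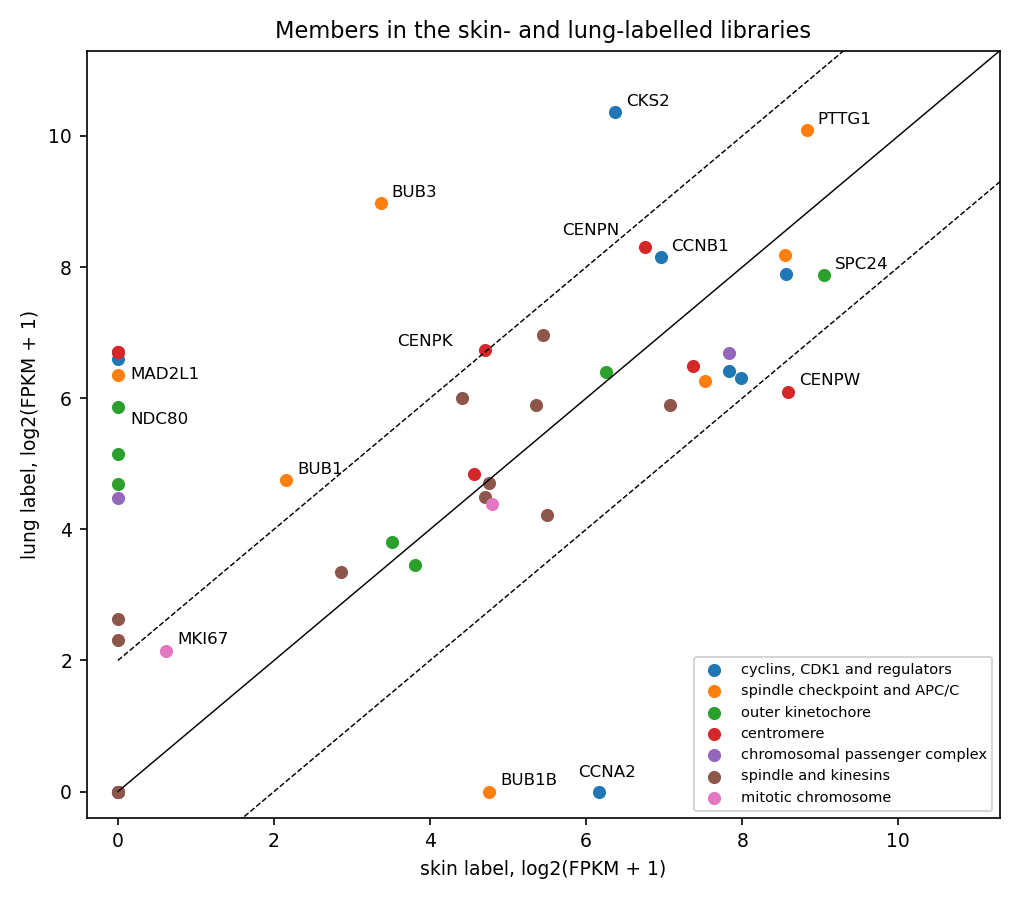
Members in the skin-labelled (horizontal) and lung-labelled library (vertical), as log2(FPKM + 1), coloured by role, with a solid line of equal values and dashed lines of 4 times after adding 1. Most genes above 0 in both lie between the dashed lines, CKS2 and BUB3 lie far above them and CENPW below, and genes on the axes are listed at 0 in 1 library.

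Set against the brain-, heart- and limb-labelled libraries as a set, the lung-labelled library had 30 members called higher, against 2.2% of all entries and 6.99% of those with a mean of at least 1 FPKM, and the skin-labelled library 24, against 1.87% and 5.95%. The 21 members called in both are those common to the 30 and the 24. By role, the lung-labelled library alone called 7 of 7 centromere and 6 of 7 outer kinetochore members, and the skin-labelled library 5 of 7 and 4 of 7.

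Other genes of mitosis and the cell cycle were taken from 7 lists with 150 entries. By the same rule 12 were called higher in both the skin- and lung-labelled libraries, against 0.427% of all entries and 1.36% of those with a mean of at least 1 FPKM, and 0 lower, against 0.58% and 1.84%. At such shares 0 or 1 called in a list of 17 to 28 entries is near the background and says nothing about that list. Without a minimum or ratio, both values lay above the other 3 for 41 of the 150, against 3.3% of all entries and 10.2% of those with that mean, and below for 0, against 2.92% and 9.19%. These lists, too, were chosen with earlier results known.

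Among other centromere and kinetochore genes 3 of 24 were called, among them CENPH and SKA3. CENPH, which forms a unit with CENPK, was at 89.4 FPKM (skin label) and 39.7 FPKM (lung label), and SKA3, of the complex that tracks microtubule ends, at 35.6 FPKM and 19.8 FPKM, both at 0 in the other 3. HJURP, the chaperone of CENPA, was at 0 in all 5. The highest values were those of CENPX and CENPS, which also act in DNA repair, and of SKA2. CENPX was at 58.6 to 343 FPKM in all 5 libraries. CENPS was at 335 FPKM (lung label), 250 FPKM (skin label), 62.7 FPKM (heart label), 41.9 FPKM (brain label) and 0 (limb label). SKA2 was at 162 FPKM under the lung label, 86.4 to 138 FPKM under the brain, heart and limb labels and 0 under the skin label. SKA2, like BUB3, was thus highest under the lung label and lowest under the skin label.

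The APC/C subunits, which work throughout G1 as well as in mitosis, had 0 of 17 called, which is near the background. Without a minimum or ratio, the skin- and lung-labelled values both lay above the other 3 for 6 of the 17. By that rule 3.3% of all entries and 10.2% of those with a mean of at least 1 FPKM did so. Above 0 in all 5 libraries were 6 of the 17, and 13 were above 0 under the brain label, 14 under the skin label, 9 under the lung label, 12 under the heart label and 11 under the limb label. ANAPC11, the RING subunit, was at 303 FPKM (lung label), 239 FPKM (skin label) and 101 to 183 FPKM in the others. UBE2S, which extends ubiquitin chains after UBE2C, was at 259 FPKM (lung label), 125 FPKM (skin label) and 50.2 to 119 FPKM in the others. ANAPC15 was at 181 FPKM (skin label), 128 FPKM (lung label) and 58.4 to 107 FPKM in the rest.

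Condensin and cohesin genes had 0 of 20 called, which is near the background. Above 0 were 14 of 20 under the lung label, 13 under heart, 10 under skin, 8 under limb and 4 under brain. Over all entries 18.5% (skin label) to 24% (heart label) were above 0. Over those with a mean of at least 1 FPKM it was 56.4% (skin label) to 71.7% (brain label). SMC1A, a cohesin core subunit, was at 60.8 FPKM (lung label), 33.7 FPKM (skin label) and 29.0 FPKM (heart label) and at 0 in the other 2. SMC4, a condensin core subunit, was at 59.3 FPKM (lung label), 19.1 FPKM (skin label) and 0 to 8.06 FPKM in the rest, and SMC3, of cohesin, at 46.3 FPKM (lung label), 25.7 FPKM (limb label) and 2.58 FPKM (brain label). For 6 of the 20, among them SMC4 and SMC1A, both values lay above the other 3, and for SMC3 they did not. Of all entries 3.3% did so, and of those with a mean of at least 1 FPKM 10.2%.

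Other spindle, centrosome and cytokinesis genes had 4 of 23 called. ECT2, which activates RhoA at the cleavage furrow, was at 66.6 FPKM (skin label), 39.8 FPKM (lung label) and 0 to 8.30 FPKM in the rest. ANLN (anillin), of the contractile ring, was at 39.3 FPKM (skin label), 56.7 FPKM (lung label) and 3.33 FPKM (limb label). CKAP2, a spindle protein, was at 56.5 FPKM (skin label), 40.3 FPKM (lung label) and 0 to 9.14 FPKM in the rest. The kinesin KIF15 was the fourth, at 13.8 FPKM (skin label) and 34.0 FPKM (lung label) only.

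Of 21 regulators of mitotic entry and transcription 1 was called, MYBL2 (B-Myb), which drives mitotic genes, at 48.4 FPKM (skin label) and 62.3 FPKM (lung label) and 0 elsewhere. FOXM1, its partner factor, was at 0 in all 5 libraries. The highest of this list, the chromatin protein RBBP4 at 224 to 510 FPKM and ARPP19, an inhibitor of the phosphatase PP2A, at 59.1 to 355 FPKM, were above 0 in all 5. LIN37, of the DREAM complex, was at 138 FPKM (brain label), 63.7 FPKM (skin label) and 0 to 17.8 FPKM in the rest. RBBP4 and ARPP19 had their highest value under the skin label.

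Of the genes of G1, 1 of 17 was called, the inhibitor CDKN2C (p18) at 20.5 FPKM (skin label) and 20.6 FPKM (lung label) and 0 elsewhere. CDK4 was at 86.6 to 223 FPKM, CCND1 (cyclin D1) at 58.6 to 193 FPKM and CCND2 (cyclin D2) at 26.6 to 150 FPKM in all 5 libraries. CCND2 was highest under the limb label, where the fewest mitotic members were above 0. The other G1 cyclins and kinases were listed in few libraries. CCND3 (cyclin D3) was at 0 in all 5, CCNE1 (cyclin E1) was above 0 only under the brain label, at 23.8 FPKM, and CCNE2 (cyclin E2) was at 99.3 FPKM under the lung label, 2.01 FPKM under the skin label and 0 elsewhere. Of the 17, the skin-labelled library listed 8, the lung-labelled 10 and the others 6 or 7.

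DNA replication genes added up to 2987 FPKM (skin label) and 3225 FPKM (lung label), against 245 to 411 FPKM in the rest, and 3 of 28 were called, MCM3, RRM1 and DUT. MCM3, of the replicative helicase, was at 19.1 FPKM (skin label) and 41.7 FPKM (lung label) and 0 elsewhere, and RRM1, of ribonucleotide reductase, at 109 and 110 FPKM, with 0 to 18.7 FPKM in the rest. DUT (dUTPase) alone stood at 1839 FPKM (skin label) and 1480 FPKM (lung label), against 256 FPKM (heart label), 204 FPKM (brain label) and 0 (limb label). PCNA, the sliding clamp, was at 318 FPKM (lung label), 99.8 FPKM (skin label) and 0 to 76.1 FPKM in the rest, and the clamp loader subunit RFC3 at 357 FPKM (skin label), 115 FPKM (lung label) and 0 to 60.5 FPKM. Above 0 were 23 of 28 under the lung label and 13 under the skin label, and 8 or 9 in the others. Over all entries 21.7% (lung label), 18.5% (skin label) and 19.3% to 24% (others) were above 0, and over those with a mean of at least 1 FPKM 65.8%, 56.4% and 58.7% to 71.7%.

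**Figure D5:**
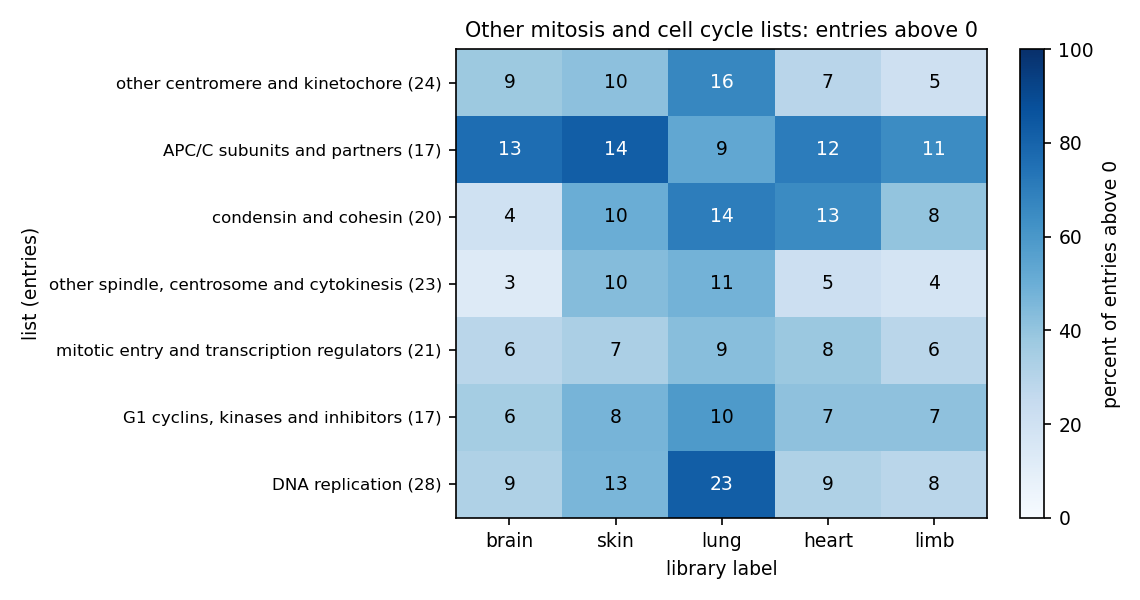
Number of entries above 0 FPKM (printed) and their percent of the list (colour) for 7 lists of other mitosis and cell cycle genes (rows, with entries in brackets) in the 5 libraries (columns). Replication genes reach 23 of 28 under the lung label, while the APC/C subunits have 9 to 14 of 17 in every library.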

How the data were processed

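RNA of 5 cattle libraries was sequenced, and per the submitters' processing notes bcl2fastq, STAR and RSEM were used with the ARS-UCD1.2 build. Their versions, the annotation release, the strand setting and any filters were not given in the sources used here. A single table of 27607 entries by 5 libraries was deposited by the authors, and these deposited values were taken as FPKM by elimination, since no header or label names the unit: 99.0% of the values above 0 were not whole, and the columns summed to 1072430 to 1172800, above the fixed total of TPM. Whether the values are in another unit that is not whole was not tested. Gene names were used as the table gives them.

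Values were used as deposited, with python 3.11.15 and pandas 2.3.3, with no count model and no test. The call rule took 10 FPKM, a ratio of 4 and 1 added to both values, which understates ratios of low genes. No ratio is given against 0. Percentages called are over all entries and over the 8694 with a mean of at least 1 FPKM. Low values were compared between 2 and 200 FPKM, with ratios equal within 0.3%. Depth was not recovered as reads, so no counting interval is given.

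The members and gene lists were chosen with earlier results of these data known. Named are all members and, of each other list, the 3 entries with the highest value, the entries called except 1 that is not reported here, and HJURP, FOXM1, CCND3, CCNE1 and CCNE2, chosen after their values were seen. Marker genes were likewise named after their values were seen. The list genes CCNF and CDKN2A were not analysed here. A planned comparison with protein length was not run, since no protein lengths were used here. By gene name all 47 members were found in a RefSeq table of ARS-UCD2.0, where 15 overlap another gene, among them OIP5 with NUSAP1 and KIF20A with CDC23. Without a stated strand setting, reads of such pairs may not be told apart. The values come from the ARS-UCD1.2 build, whose annotation may differ in these overlaps. The code of the call rule was checked on simulated data.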

Additional observations from a re-analysis of the deposited data

How the results depend on the processing

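No paired analysis was possible because each label has 1 library. The count of 21 members higher in both the skin- and lung-labelled libraries stayed within 18 and 24 under every alternative run except that without the skin-labelled library, where the lung-labelled library alone gave 30. The alternatives that leave out the skin- or the lung-labelled library were chosen after seeing the data. CCNB2 and CENPF lost their call under both rescalings. The count of 0 members lower became 1 without the lung-labelled library, through BUB3, and stayed 0 otherwise. Members higher in the skin- than the lung-labelled library numbered 10 at a ratio of 2 and 2 at a ratio of 8, and stayed at 3 otherwise, and those higher in the lung- than the skin-labelled library numbered 10 to 17. Rescaling by the median ratio over 2607 shared genes moved the summed level of the members to 3952 FPKM (skin label), 5687 FPKM (lung label), 322 FPKM (brain label), 611 FPKM (heart label) and 477 FPKM (limb label). Without the highest member of each library the sums were 3577, 4646, 194, 235 and 193 FPKM in the same order. At a minimum of 10 FPKM instead of above 0, the members listed fell to 6 under the brain label and 5 under the heart label. The largest shift of a library on rescaling was -0.14 on the log2 scale, for the heart label. At these depths a gene listed at 0 may be expressed below detection.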
